A study of Homo sapiens with 9 samples.

Results

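The MHC class II pathway was followed through 6 genes chosen by name, CIITA, CD74, HLA-DRA, HLA-DMA, HLA-DMB and HLA-DPA1, and every probe carrying one of these names was read, 9 probes of 58201 on the array. The array holds probes for 43395 genes, of which 20104 were tested, and 5 of the 6 genes were among them. CIITA was not tested, because neither of its 2 probes was well above background on all 3 arrays of any line. RNA came from T47D, a long-established luminal breast cancer line of human origin, as 3 stable lines with 3 single-color arrays per line and 9 in all. T47D-VC1 carried the empty expression vector, T47D-PA6 carried full-length PTH-AS, a long noncoding RNA made downstream of the parathyroid hormone gene, and T47D-PA5 carried an incomplete PTH-AS that lacks part of the 5′ side. The authors used T47D-PA5 as a negative control and treated changes shared by T47D-PA5 and T47D-PA6 as nonspecific. Below, the PTH-AS lines are T47D-PA5 and T47D-PA6 together. All 3 lines were transfected with the same vector backbone and selected with G418, and a single selected line stands for each insert, so a difference between inserts and a difference between selected lines cannot be told apart. Nothing in the labels states that the 3 arrays of a line came from separate cultures, and p-values then measure the spread between these arrays, which may be technical.

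MHC class II molecules are pairs of an alpha and a beta chain that present peptides from endosomes to CD4+ T cells, and they are best known from dendritic cells, macrophages and B cells, although epithelial and tumor cells can carry them as well. Their genes are switched on together by CIITA, a coactivator that does not itself bind DNA but docks on a complex of RFX, NF-Y and CREB proteins at the X and Y boxes of class II promoters. Interferon gamma is the classic inducer of CIITA in cells that do not present antigen by trade. Type I interferons act chiefly through another element, the ISRE, and raise antiviral genes and MHC class I.

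The promoters are shown because the X and Y boxes are the elements that class II genes share. They were taken from RefSeq windows on GRCh38.p14 that run from 250 bases before to 50 bases after each gene's start. Windows were found for CD74, HLA-DMA, HLA-DMB and HLA-DPA1, the last with 2 starts, and not for CIITA or HLA-DRA. The 250 bases before the start are printed 5′ to 3′ for CD74 (minus strand, chr5:150412911-150413160), HLA-DMA (minus strand, chr6:32953098-32953347), HLA-DMB (minus strand, chr6:32941029-32941278) and, as a chain gene that rose in both PTH-AS lines, HLA-DQB1 (minus strand, chr6:32666658-32666907). Capitals mark the Y box core ATTGG, the X2 box core TGACG and the RFX site core GCAAC on either strand.
CD74: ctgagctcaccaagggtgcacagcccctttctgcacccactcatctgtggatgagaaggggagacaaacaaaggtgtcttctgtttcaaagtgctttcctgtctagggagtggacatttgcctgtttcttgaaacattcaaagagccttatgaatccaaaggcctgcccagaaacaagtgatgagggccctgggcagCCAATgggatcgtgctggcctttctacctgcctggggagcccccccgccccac
HLA-DMA: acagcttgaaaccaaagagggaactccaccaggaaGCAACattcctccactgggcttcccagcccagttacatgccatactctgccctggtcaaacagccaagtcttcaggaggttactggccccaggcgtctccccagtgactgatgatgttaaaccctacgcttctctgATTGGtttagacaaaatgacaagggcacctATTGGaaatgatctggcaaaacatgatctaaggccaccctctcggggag
HLA-DMB: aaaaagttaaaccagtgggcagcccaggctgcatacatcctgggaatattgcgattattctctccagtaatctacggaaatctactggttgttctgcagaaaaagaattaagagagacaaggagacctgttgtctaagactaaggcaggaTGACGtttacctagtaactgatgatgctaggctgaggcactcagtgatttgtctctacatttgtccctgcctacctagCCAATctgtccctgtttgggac
HLA-DQB1: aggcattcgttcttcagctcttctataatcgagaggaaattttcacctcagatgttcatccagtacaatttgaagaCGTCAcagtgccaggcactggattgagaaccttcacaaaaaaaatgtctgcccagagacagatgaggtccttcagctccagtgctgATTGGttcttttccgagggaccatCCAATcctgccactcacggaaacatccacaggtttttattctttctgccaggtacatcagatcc

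All 4 printed promoters held a Y box core. In CD74 it lay on the reverse strand with its first base at -53, in HLA-DMB on the reverse strand at -22, in HLA-DMA at -79 and -49, and in HLA-DQB1 at -88 and, on the reverse strand, at -64. HLA-DMB had an X2 core at -100, HLA-DQB1 had one on the reverse strand at -174, and HLA-DMA had an RFX site core at -215. Of the 2 windows of HLA-DPA1, the one at chr6:33073600-33073899 had an RFX site core at -98 and a reverse X2 core at -241, and the one at chr6:33080699-33080998 had a reverse X2 core at -57. These letters are common: among 35116 windows of 300 bases, 34.6% held the Y core, 24.6% the X2 core and 33.6% the RFX site core. The ISRE core, GAAANNGAAA, was in 3.57% of windows and the GAS core, TTCNNNGAA, in 7.66%, and neither was in any window of these 5 genes. A match is a description of the letters and no evidence of binding, and the absence of a match concerns this window alone.

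CD74 is the invariant chain, which occupies the groove of a new class II molecule and guides it to the endosome. Its normalized signal was 26.5, 52.5 and 33.4 on the 3 T47D-VC1 arrays, 55.3, 82.3 and 73.9 in T47D-PA5, and 76.2, 73.1 and 63.8 in T47D-PA6 (probe A_23_P70095, hg19 chromosome 5, 149792222 to 149792281). Every array of both PTH-AS lines was above every array of T47D-VC1, and the ranges of the 2 PTH-AS lines overlapped. The log2 fold change was 0.98 (SE 0.25) in T47D-PA6 over T47D-VC1, which passed the test (limma, adjusted p = 0.044). For T47D-PA5 against T47D-VC1 the value was 0.95 (SE 0.25), close to the same size, with an adjusted p of 0.11. The difference between the PTH-AS lines was 0.03 (SE 0.25, adjusted p = 0.96). With slide as a block, CD74 also passed the test in T47D-PA5 (0.95, adjusted p = 0.039).

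HLA-DRA is the alpha chain shared by all HLA-DR molecules. Its signal was 2.5, 2.46 and 2.47 in T47D-VC1, 3.74, 8.68 and 16.8 in T47D-PA5, and 25.1, 11.3 and 17.9 in T47D-PA6 (A_32_P87697, chromosome 6, 32412448 to 32412507). No T47D-VC1 array had it well above background, whereas it was so on 1 T47D-PA5 array and on all 3 T47D-PA6 arrays. The fold is therefore only a bound, at least 1.38-fold above T47D-VC1 in T47D-PA6 (geometric means 17.2 and 2.48, limma adjusted p = 0.012). The probe could be tested only because it was well above background in T47D-PA6, the line where it is high. Its p-values do not stand apart from that selection. A bound uses, on each array of the dim line, either the probe's signal or the dimmest signal that was well above background there, whichever is higher. For T47D-PA5 no fold can be given, because its geometric mean of 8.17 lay below that level (adjusted p = 0.14 against T47D-VC1), and T47D-PA6 and T47D-PA5 overlapped (adjusted p = 0.22).

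HLA-DM, made of HLA-DMA and HLA-DMB, removes the remnant of the invariant chain and lets peptides bind. HLA-DMA read 525, 762 and 713 in T47D-VC1, 734, 1067 and 971 in T47D-PA5, and 1220.1, 849.6 and 929 in T47D-PA6 (A_23_P42306, chromosome 6, 32916566 to 32916625). The T47D-PA6 arrays were above all T47D-VC1 arrays, yet the log2 fold change of 0.59 (SE 0.21) did not pass the test (adjusted p = 0.11), nor did 0.47 (SE 0.21) in T47D-PA5 (adjusted p = 0.32). The second HLA-DMA probe, A_24_P50245 (chromosome 6, 32917418 to 32917477), gave 0.51 (SE 0.20) and 0.42 (SE 0.20) in a fit to all tested probes. HLA-DMB read 35.0, 71.9 and 62.5 in T47D-VC1, 52.0, 85.9 and 86.1 in T47D-PA5, and 184.6, 104.4 and 144.0 in T47D-PA6 (A_32_P351968, chromosome 6, 32902504 to 32902563). T47D-PA6 was above the other lines on every array, and exceeded T47D-VC1 by 1.38 on the log2 scale (SE 0.33, adjusted p = 0.035). T47D-PA5 overlapped T47D-VC1, at 0.43 (SE 0.33, adjusted p = 0.60), and T47D-PA6 over T47D-PA5 was 0.95 (SE 0.33, adjusted p = 0.11). The HLA-DM chains thus gave unequal values, and the difference between them was not tested.

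HLA-DPA1, the alpha chain of HLA-DP, gave a different answer on each of its 2 probes. The one with the higher mean signal, which by rule stands for the gene, moved little, at 62.8, 57.7 and 62.7 in T47D-VC1, 60.6, 66.1 and 55.4 in T47D-PA5, and 71.2, 64.8 and 69.0 in T47D-PA6 (A_33_P3234277, chromosome 6, 33036886 to 33036945). Its log2 fold change was 0.16 (SE 0.10, adjusted p = 0.35) in T47D-PA6 and -0.01 (SE 0.10, adjusted p = 0.97) in T47D-PA5, although the 3 T47D-PA6 arrays lay just above all T47D-VC1 arrays. The other read 7.34, 6.98 and 8.42 in T47D-VC1, 12.6, 21.1 and 20.9 in T47D-PA5, and 37.1, 27.7 and 36.7 in T47D-PA6, with no overlap between any of the lines (A_23_P30913, chromosome 6, 33032848 to 33032907). On that probe, chosen for mention after its values were seen, T47D-PA6 was at least 2.69-fold (adjusted p = 0.0012) and T47D-PA5 at least 1.42-fold (adjusted p = 0.032) above T47D-VC1, in which no array was well above background. Like HLA-DRA, the probe passed the filter on dim probes only through T47D-PA6, where it is high, so its p-values do not stand apart from that selection. T47D-PA6 also exceeded T47D-PA5, by 0.92 on the log2 scale (SE 0.22, adjusted p = 0.033), where 2 of the 3 T47D-PA5 arrays were well above background. Which transcripts each one reads was not tested.

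CIITA, the coactivator itself, stayed at the edge of detection. Probe A_32_P209960 (chromosome 16, 11018667 to 11018726) read 3.96, 2.68 and 2.63 in T47D-VC1, 5.49, 4.98 and 4.84 in T47D-PA5, and 20.8, 10.3 and 8.14 in T47D-PA6. The 3 lines did not overlap on it, but just 1 of the 9 arrays, replicate 1 of T47D-PA6, was well above background. Probe A_33_P3324394 (chromosome 16, 10996598 to 10996657) read 3.67, 8.53 and 55.7 in T47D-VC1, 4.85, 5.78 and 2.45 in T47D-PA5, and 25.3, 2.49 and 4.32 in T47D-PA6. It was well above background on replicate 3 of T47D-VC1 and replicate 1 of T47D-PA6 only, and it separated no lines. No fold is given for CIITA, and these arrays set no level for it.

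**Figure D1:**
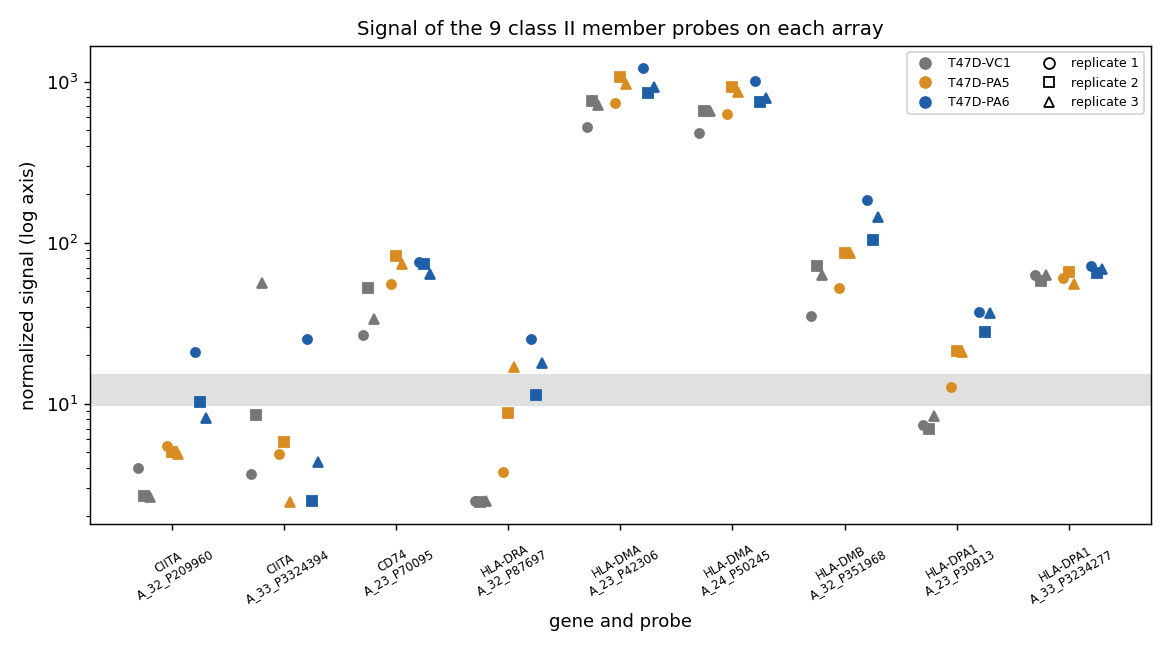
Normalized signal (log axis) of each of the 9 probes of the 6 genes on each of the 9 arrays, with color for the line and shape for the replicate; the gray band spans the lowest signal well above background on the 9 arrays, 9.59 to 15.2. CD74, HLA-DMA, HLA-DMB and HLA-DPA1 probe A_33_P3234277 lie above the band on every array, both CIITA probes lie mostly below it, and HLA-DRA and HLA-DPA1 probe A_23_P30913 are below it in T47D-VC1 and within or above it in T47D-PA6.

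Of the 5 genes tested, 3 passed the test in T47D-PA6 over T47D-VC1 (CD74, HLA-DRA and HLA-DMB). HLA-DRA was tested only through T47D-PA6, where it is high, so it is not counted as a rise. That leaves CD74 and HLA-DMB, where 4.69% of all genes tested rose and 5.34% fell. In T47D-PA5 over T47D-VC1 limma called 0 of 5, where 1.36% of all genes rose and 0.298% fell. Without adjustment 2 of the 5 had p under 0.05 in that comparison by limma, and 1 by the methods' t-test. In T47D-PA6 over T47D-PA5 limma called 0 of 5, where 3.65% of all genes rose and 6.06% fell, and 1 had an unadjusted p under 0.05 by either test. By the ratio of more than 2 that the methods use, with no test, 2 of 5 were counted up in T47D-PA6 (HLA-DRA and HLA-DMB, against 3.47% of all genes) and 1 in T47D-PA5 (HLA-DRA, against 2.16%), and none was under 0.6. The ratio of HLA-DRA is set by T47D-VC1 signals not well above background and is no measured fold, which leaves HLA-DMB alone with a measured ratio past 2. All 5 had every T47D-PA6 array above every T47D-VC1 array, as did 13.1% of all genes, and 2 had every T47D-PA5 array above them, as did 11.2%. HLA-DRA passed the filter on dim probes only through T47D-PA6, the line in which it is high. The median log2 fold change of the 5 was 0.98 in T47D-PA6 and 0.47 in T47D-PA5, and 0.59 and 0.43 with HLA-DRA set at its bound, where the median of all genes tested was -0.03 in both. The methods' t-test with Benjamini-Hochberg adjustment called 0 of 5 in each comparison. The T47D-PA6 call for CD74 was lost when any single array was left out other than replicate 2 of T47D-VC1 or replicate 1 of T47D-PA5 (log2 0.76 to 1.25, adjusted p 0.017 to 0.14). The call for HLA-DMB was lost on leaving out any array but replicate 1 of T47D-PA5 (1.07 to 1.59, 0.032 to 0.11), and the call for HLA-DRA on leaving out replicate 3 of T47D-PA6 (adjusted p = 0.051, range 0.0039 to 0.051). With normexp background correction at an offset of 50, which compresses dim signals, the T47D-PA6 values were 0.48 for CD74, 0.75 for HLA-DMB and 0.42 for HLA-DRA, and all 3 still passed the test.

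Replicate 1 of every line was on slide 1, while replicate 2 of the vector line and of T47D-PA5 shared slide 2, and all the remaining arrays, replicate 3 of each line and replicate 2 of T47D-PA6, were on slide 3. Within slide 1, CD74 was 1.52, HLA-DMA 1.22 and HLA-DMB 2.40 higher on the log2 scale in T47D-PA6 than in the vector line. Within slide 3 the same differences were 1.03, 0.32 and 0.97. The sign was the same on both slides and the size larger on slide 1. For T47D-PA5 over T47D-VC1, CD74 differed by 1.06, 0.65 and 1.15 on slides 1, 2 and 3, and HLA-DMB by 0.57, 0.26 and 0.46.

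The other class II chains were read from 23 probes of 12 genes, of which 11 genes were tested and HLA-DRB6 was not. HLA-DQB1, the HLA-DQ beta chain, read 218, 291 and 235 in T47D-VC1, 674, 1185 and 1125 in T47D-PA5, and 1233, 534 and 626 in T47D-PA6 (A_22_P00007720, chromosome 6, 32627683 to 32627742). Both PTH-AS lines lay above T47D-VC1 on every array, with log2 fold changes of 1.60 in T47D-PA6 (SE 0.33, adjusted p = 0.022) and 1.97 in T47D-PA5 (SE 0.33, adjusted p = 0.026). All 5 HLA-DQB1 probes passed the test in both lines in the fit to all tested probes, at 1.38 to 1.65 in T47D-PA6 and 1.75 to 1.97 in T47D-PA5, although 1 of them, A_23_P8108, is placed at 32725597 to 32725656, beside the HLA-DQB2 probe and away from the others. HLA-DQB2, its close paralog, read 26.7, 43.6 and 37.8, then 92.7, 158.0 and 139.5, then 163, 72.6 and 82.5 in the vector, incomplete and full-length lines. It rose by 1.49 in T47D-PA6 (SE 0.34, adjusted p = 0.030) and by 1.84 in T47D-PA5 (SE 0.34, adjusted p = 0.038), the same order as HLA-DQB1. The call for HLA-DQB1 was lost on leaving out replicate 2 or 3 of T47D-VC1 or replicate 3 of T47D-PA6 (T47D-PA6, 1.23 to 1.84), and for T47D-PA5 on leaving out any T47D-VC1 array, replicate 2 or 3 of T47D-PA5 or replicate 3 of T47D-PA6 (1.82 to 2.23). HLA-DQB2 lost its T47D-PA5 call without the same 6 arrays (1.64 to 2.07) and its T47D-PA6 call without any T47D-VC1 array, replicate 3 of T47D-PA5 or replicate 3 of T47D-PA6 (1.13 to 1.71). Between the PTH-AS lines, HLA-DQB1 was 0.87 higher in T47D-PA6 within slide 1 and lower by -0.96 within slide 3, and HLA-DQB2 gave 0.82 and -0.85.

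HLA-DQA1 and HLA-DQA2, the alpha chain of HLA-DQ and its paralog, went another way. HLA-DQA1 read 3.16, 12.7 and 10.1 in T47D-VC1, 38.0, 25.4 and 26.8 in T47D-PA5, and 10.9, 3.08 and 5.80 in T47D-PA6 (A_33_P3293049, chromosome 6, 32610501 to 32610560), and was well above background in T47D-PA5 alone. HLA-DQA2 read 18.9, 41.6 and 48.6, then 126.7, 74.7 and 73.5, then 41.2, 14.7 and 17.9 (A_24_P852756, chromosome 6, 32714597 to 32714656). T47D-PA5 stood above both other lines on every array for both genes. HLA-DQA1 was at least 2.55-fold higher in T47D-PA5 than in T47D-PA6 (geometric means 29.6 and 5.79, adjusted p = 0.039), although it passed the filter on dim probes only through T47D-PA5, where it is high, and HLA-DQA2 was lower in T47D-PA6 than in T47D-PA5 by -2 (SE 0.47, adjusted p = 0.033). Against T47D-VC1 neither passed the test in T47D-PA5 (at least 2.37-fold with adjusted p = 0.14, and 1.39 with adjusted p = 0.20) or in T47D-PA6 (adjusted p = 0.75 and 0.46). Each lost its call between the PTH-AS lines on leaving out any of 6 single arrays, among them all 3 of T47D-PA5 and replicates 2 and 3 of T47D-PA6 (log2 -2.81 to -1.90 and -2.45 to -1.71). With slide as a block both calls were lost as well (adjusted p = 0.10 and 0.082).

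The remaining 7 chains did not pass the test in any of the 3 comparisons. HLA-DPB1, the partner of HLA-DPA1, had fitted values of 1.84 in T47D-PA6 (SE 0.63, adjusted p = 0.10) and 1.53 in T47D-PA5 (SE 0.63, adjusted p = 0.29), from signals of 6.93, 7.25 and 13.1, then 17.1, 29.4 and 31.4, then 95.3, 19.1 and 16.6. It was well above background on 1 T47D-VC1 array, 2 T47D-PA5 arrays and all 3 T47D-PA6 arrays, so these values rest in part on signals at background. Replicate 1 of T47D-PA6 stood far above its 2 partners. HLA-DRB1, the main DR beta chain, was 0.26 (SE 0.30) in T47D-PA6 and 0.51 (SE 0.30) in T47D-PA5. HLA-DRB3, HLA-DRB4 and HLA-DRB5, the DR beta chains that only some haplotypes carry, were 0.33, 0.51 and 0.65 in T47D-PA6 and 0.36, 0.75 and 0.79 in T47D-PA5. HLA-DOA and HLA-DOB, which form the HLA-DM inhibitor HLA-DO, were 0.30 and 0.68 in T47D-PA6 and 0.06 and 0.79 in T47D-PA5. Of the 11 chains, 2 rose and none fell in each PTH-AS line, and 2 passed the test as lower in T47D-PA6 than in T47D-PA5, with medians of 0.51, 0.79 and -0.25. The 2 lower chains include HLA-DQA1, which passed the filter on dim probes only through T47D-PA5, where it is high. HLA-DQA2 alone is therefore counted as a fall. Of all genes tested, 4.69% rose in T47D-PA6, 1.36% rose in T47D-PA5 and 6.06% fell between the PTH-AS lines. The chain genes are close copies of each other and vary between haplotypes, so a signal may hold RNA of a sister gene: the longest run of identical bases between probes of different class II genes was 11 of 60, but the probes were not compared with the transcripts themselves.

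**Figure D2:**
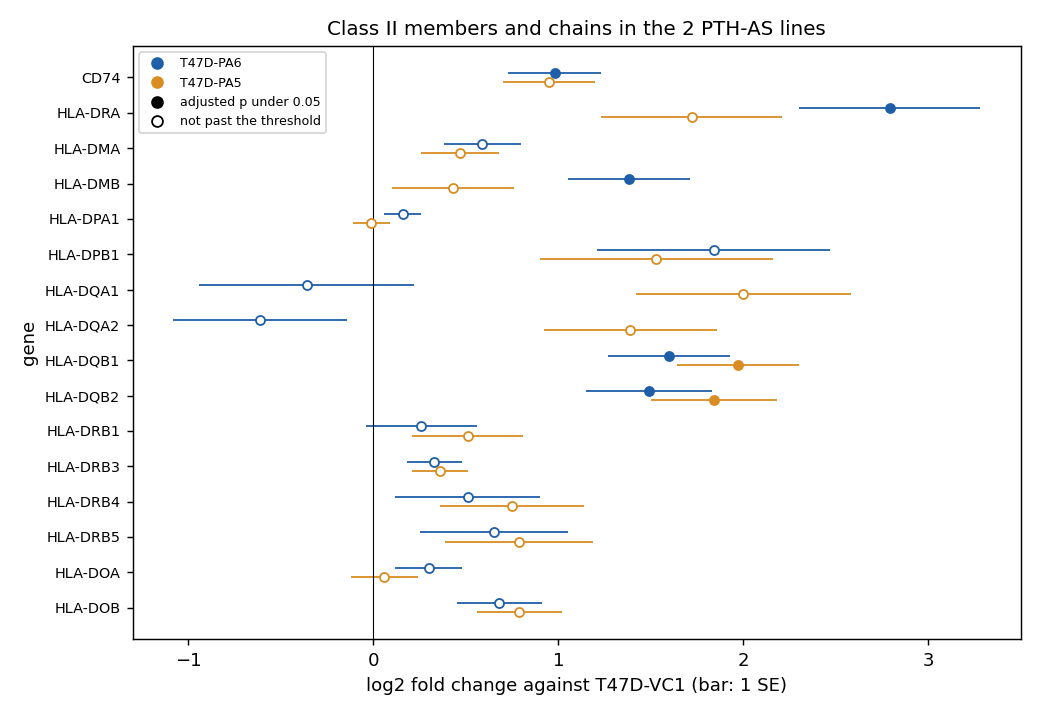
Log2 fold change against T47D-VC1 with 1 SE (limma, 3 arrays per line) for the 5 tested members, listed first, and the 11 tested chains; filled points had an adjusted p under 0.05. Filled points for both lines occur in HLA-DQB1 and HLA-DQB2, and filled points for T47D-PA6 alone in CD74, HLA-DRA and HLA-DMB; the fitted values of HLA-DRA and HLA-DQA1 rest on signals below background in at least 1 line and are no fold.

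The arrays of a line were not alike for these genes, a pattern chosen for mention after the values were seen. In T47D-PA6, replicate 1 was above both other replicates in all 5 tested members and all 11 tested chains, where 39.4% of all genes tested had this order. Its median excess over the mean of replicates 2 and 3 was 0.46 for the members and 1.08 for the chains, against -0.04 over all genes. In T47D-PA5, replicate 1 was instead below both partners in 4 of 5 members and 8 of 11 chains (41.8% of all genes), with median differences of -0.50 and -0.57. The T47D-PA5 order was also that of all 33 type I interferon genes, with a median difference of -1.06, and of 9 of 11 class I genes. The type I genes did not share the T47D-PA6 order: replicate 1 was below both partners in 28 of 33 (48.8% of all genes) and above both in 3. In T47D-VC1, replicate 1 had the lowest list medians, -0.33 for the members against 0.21 and 0.04, and -0.33 for the chains against 0.25 and 0.10, which widens the difference of T47D-PA6 from T47D-VC1 on slide 1. Replicate 1 was the array on slide 1 in all 3 lines, so slide and replicate cannot be told apart.

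With slide 1 left out, an alternative also chosen after the data were seen, 2 arrays per line remained. In T47D-PA5 over T47D-VC1, 9 of 11 chains then rose, with HLA-DOA and HLA-DQA1 the exceptions, where 10.6% of all genes rose. So did 32 of 34 type I genes and 10 of 11 class I genes on those arrays. In T47D-PA6 over T47D-VC1, HLA-DQB1 and HLA-DQB2 rose and HLA-DQA2 fell, where 16.7% of all genes rose and 18.6% fell. HLA-DQA1 was well above background on no array of either of those lines, so its change there is not counted. In T47D-PA6 over T47D-PA5, 8 of 11 chains fell, with a median of -0.81, where 17.5% of all genes fell. HLA-DQA1 is 1 of the 8, although it passed the filter on dim probes only through T47D-PA5 and was well above background on no T47D-PA6 array. HLA-DRB5, for example, was 0.93 in T47D-PA5 and 0.05 in T47D-PA6 over T47D-VC1 on those arrays, and -0.88 between them (adjusted p = 0.0014). Among the members, HLA-DMB rose in T47D-PA6 and HLA-DMA in T47D-PA5. HLA-DRA passed the test in both, but its T47D-VC1 arrays were not well above background and it passed the filter only through T47D-PA6, so it is not counted, and CD74 was 0.71 (adjusted p = 0.073) and 0.90 (adjusted p = 0.058).

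**Figure D3:**
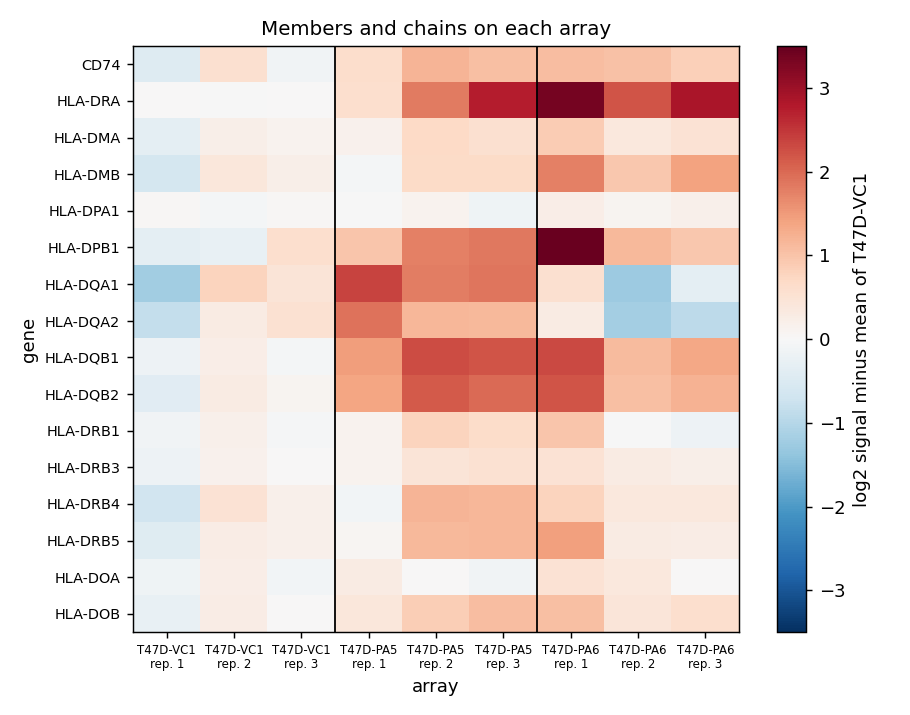
Log2 signal of each tested member and chain on each array minus the mean of the 3 T47D-VC1 arrays (red higher, blue lower). Replicate 1 of T47D-PA6 is redder than replicates 2 and 3 in all 16 genes, replicate 1 of T47D-PA5 is paler than its partners in 12 of 16, and HLA-DQA1 and HLA-DQA2 are blue on replicates 2 and 3 of T47D-PA6.

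Of 13 genes of the RFX, NF-Y and CREB complex and its cofactors, 0 rose and 2 fell in T47D-PA6 over T47D-VC1, where 4.69% of all genes rose and 5.34% fell, with a median of -0.11, and limma called 0 in T47D-PA5 over T47D-VC1 (3 at an unadjusted p under 0.05), where 1.36% of all genes rose and 0.298% fell. With so few genes, 0 rising is near the share of all genes and is no result about the factors. Without slide 1, 5 of 13 fell in T47D-PA6 (RFX5, RFXAP, NFYA, CREB1 and CREBBP, where 18.6% of all genes fell), and in T47D-PA5 RFXAP and NFYA fell and RFX5 rose, where 8.28% of all genes fell and 10.6% rose. RFXAP, a subunit of the RFX complex, read 111, 119.6 and 115 in T47D-VC1, 94.7, 94.5 and 91.2 in T47D-PA5, and 70.2, 85.0 and 91.2 in T47D-PA6. It fell by 0.50 on the log2 scale in T47D-PA6 (SE 0.11, adjusted p = 0.030). NFYA, a subunit of NF-Y, read 233, 254 and 244 in T47D-VC1, 210.5, 122 and 132 in T47D-PA5, and 129, 161 and 134 in T47D-PA6. It fell by 0.79 in T47D-PA6 (SE 0.20, adjusted p = 0.042), and both PTH-AS lines lay below T47D-VC1 on every array. RFX5, the DNA-binding RFX subunit, was lower in T47D-PA6 than in T47D-PA5 by -0.74 (SE 0.13, adjusted p = 0.013), from 1775, 2133 and 2155 in T47D-PA5 and 1433, 1125 and 1094 in T47D-PA6 and with 1432, 1564 and 1576 in T47D-VC1. On leaving out 1 array, RFXAP lost its call without replicate 2 or 3 of T47D-VC1 or T47D-PA5 or replicate 2 of T47D-PA6 (-0.58 to -0.39), NFYA without any but replicates 1 and 2 of T47D-PA5 (-0.89 to -0.73) and with slide as a block (adjusted p = 0.063), and RFX5 without replicate 2 or 3 of either PTH-AS line (-0.86 to -0.66).

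Of 20 genes for peptide supply, loading, traffic and signaling partners, 19 were tested, 3 rose in T47D-PA6 and 1 in T47D-PA5, none fell against T47D-VC1, and the medians were 0.14 and 0.13, where 4.69% and 1.36% of all genes rose. IFI30, the lysosomal thiol reductase that opens antigens for class II loading and an interferon-inducible gene, read 3252, 3570.4 and 2883 in T47D-VC1, 4753, 4559 and 4388 in T47D-PA5, and 4901, 5419 and 5823 in T47D-PA6. It rose by 0.74 in T47D-PA6 (SE 0.11, adjusted p = 0.0069), with every array above T47D-VC1, and was 0.50 in T47D-PA5 (adjusted p = 0.072). CXCR4, a chemokine receptor that can pair with CD74, read 60.4, 28.3 and 26.9 in T47D-VC1, 181.6, 139 and 143 in T47D-PA5, and 111, 158 and 180 in T47D-PA6. It rose in both lines, by 2.04 (SE 0.32, adjusted p = 0.0072) and 2.10 (SE 0.32, adjusted p = 0.018), although the T47D-PA5 call was lost without replicate 2 or 3 of T47D-VC1 or of T47D-PA5 (1.89 to 2.48). TNFRSF14, a receptor of the tumor necrosis factor family, rose by 0.81 in T47D-PA6 (SE 0.21, adjusted p = 0.046), a call lost on leaving out any array but replicate 1 of T47D-VC1 or of T47D-PA5 (0.61 to 1.04) and with slide as a block (adjusted p = 0.096). CTSD, the lysosomal protease cathepsin D, exceeded its T47D-PA5 level in T47D-PA6 by 0.91 (SE 0.13, adjusted p = 0.0053), from 7997, 8996 and 9019 in T47D-PA5 and 14619, 17285 and 17112 in T47D-PA6.

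Type I interferon genes had larger medians than the class II lists against T47D-VC1. Of 34 listed interferon-stimulated genes, 33 were tested. As higher, 32 passed the test in T47D-PA6 over T47D-VC1, 15 in T47D-PA5 over T47D-VC1 and 29 in T47D-PA6 over T47D-PA5, with medians of 3.33, 1.87 and 1.75. Of all genes tested, 4.69%, 1.36% and 3.65% rose in these comparisons. Against T47D-VC1, 5 of the 33 have only a bound, and with these at their bounds the medians were 3.33 in T47D-PA6 and 1.58 in T47D-PA5. Of the 5, RSAD2, XAF1, SAMD9 and EPSTI1 passed the filter on dim probes only through T47D-PA6, where they are high. All of these are among the 32, and RSAD2 and XAF1 also among the 29. Like HLA-DRA, they are not counted as rises. The gene that did not pass in T47D-PA6 over T47D-VC1 was MX2, at 0.32 (adjusted p = 0.36). ISG15, a ubiquitin-like modifier, read 1096, 619 and 514 in T47D-VC1, 2994, 9062 and 8239 in T47D-PA5, and 47647, 60976 and 63633 in T47D-PA6, so the 3 lines did not overlap and stood in the order T47D-VC1, T47D-PA5, T47D-PA6. The 5 genes with the largest fitted values in T47D-PA6 were, in no order, IFI44, OAS1, IFI27 (7.09), IFI6 (6.63) and ISG15 (6.34). IFI44 was well above background on no T47D-VC1 array and has only a bound, at least 136.9-fold (adjusted p = 0.00073), and OAS1 (7.14) was so on 1 of the 3 T47D-VC1 arrays. The 5 class II members had medians in the same order of lines, 0.47 in T47D-PA5 and 0.98 in T47D-PA6. With HLA-DRA at its bound these medians were closer together, at 0.43 and 0.59. Between the PTH-AS lines the median was 0.17, where all 5 fitted values were positive, that of HLA-DRA included, and none passed the test. Without slide 1, CD74 and HLA-DMA turned negative there (-0.19 and -0.20), and the other members stayed positive. The 11 chains had the other order, 0.79 in T47D-PA5 and 0.51 in T47D-PA6, with -0.25 between the PTH-AS lines, where HLA-DQA2 fell and none rose. HLA-DQA1 also passed the test there, but it passed the filter on dim probes only through T47D-PA5, where it is high. By array, replicates 2 and 3 had chain medians of 1.15 and 1.17 in T47D-PA5 and 0.36 and 0.25 in T47D-PA6. On replicate 1 the order was reversed, at 0.41 in T47D-PA5 and 0.96 in T47D-PA6. The difference between the lists was not tested.

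Interferon gamma targets and MHC class I genes also had positive medians in both PTH-AS lines. Of 20 genes known for a response to interferon gamma or for its receptor and first relays, 10 were tested, and IFNG, CXCL9, CXCL10, CXCL11, IRF8, IDO1, CD274, GBP1, GBP5 and FCGR1A were not. In T47D-PA6 over T47D-VC1, 6 rose, with a median of 0.87, and in T47D-PA5 over T47D-VC1, 1 rose (ICAM1, at 0.73, a call lost without replicate 2 or 3 of T47D-VC1 or of T47D-PA5 or replicate 3 of T47D-PA6), with a median of 0.32. IRF1, a transcription factor that acts on the CIITA promoter, read 42.0, 37.9 and 37.4 in T47D-VC1, 38.3, 55.5 and 59.0 in T47D-PA5, and 75.6, 136.5 and 124 in T47D-PA6. It rose by 1.48 in T47D-PA6 (SE 0.24, adjusted p = 0.009), with no overlap, and was 0.36 in T47D-PA5 (SE 0.24, adjusted p = 0.54). The other named genes of that list were SERPING1 (1.62), ICAM1 (1.48), GBP2 (1.21) and GBP4 (0.92), and the GBP2 call was lost without replicate 2 or 3 of T47D-VC1 or of T47D-PA6 (0.98 to 1.5). Of 11 class I presentation genes, 9 rose in T47D-PA6 and 1 in T47D-PA5 (PSMB9), with medians of 1.34 and 0.46, and 7 rose in T47D-PA6 over T47D-PA5. Of all genes, 4.69% rose in T47D-PA6, 1.36% in T47D-PA5 and 3.65% between the PTH-AS lines.

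**Figure D4:**
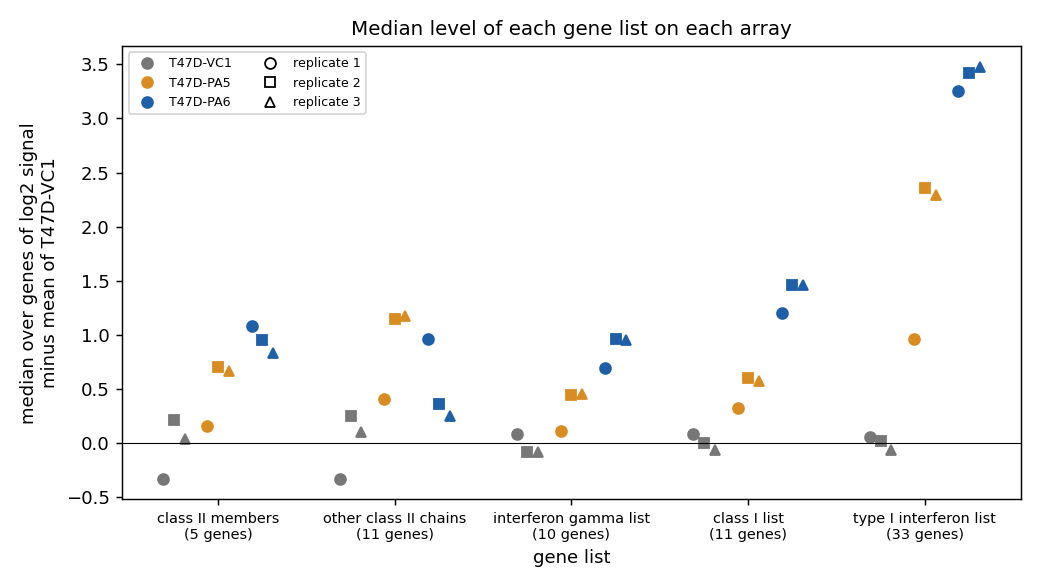
Median over the tested genes of each list, on each array, of the log2 signal minus the mean of T47D-VC1 (color for the line, shape for the replicate). The type I list runs from 3.25 to 3.48 in T47D-PA6 and from 0.96 to 2.36 in T47D-PA5, while the class II members run from 0.83 to 1.08 in T47D-PA6 and from 0.16 to 0.70 in T47D-PA5, and the other chains from 0.25 to 0.96 and from 0.41 to 1.17.

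The 5 genes whose pattern over the 9 arrays was most like the mean of the 5 tested members, each scaled to an SD of 1, were HGC6.3 (Pearson r 0.97), RNF31, C19orf33, CDC42EP2 (0.96 each) and ADAP1 (0.95), among 18230 genes well above background on all arrays. RNF31, a subunit of a ubiquitin ligase complex, read 414, 477 and 457 in T47D-VC1, 515, 636 and 635 in T47D-PA5, and 733, 674 and 761 in T47D-PA6. The type I interferon genes that were above background on all arrays had r from 0.66 to 0.94 with the same mean (median 0.89, 26 genes), and the 8 chains had a median of 0.79. These correlations share the 9 arrays and the 3 line means and are given as a description. Among the members, HLA-DMB (0.95), HLA-DMA (0.94) and HLA-DRA (0.92) lay closest to their own mean and HLA-DPA1 (0.61) farthest. Each member is part of that mean, so its r is set in part by its own values. HLA-DRA, tested only through T47D-PA6, where it is high, is in the mean as well, and the ranking rests in part on it.

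The arrays carried the markers of the labeled cell. All 11 luminal epithelial markers were well above background on all 9 arrays. Of these, TFF1 rose (1.62) and PGR, the progesterone receptor, fell (-1.07) in T47D-PA6 over T47D-VC1. Of 14 markers of blood cells that carry class II, 5 were tested, and their summed signal was 2404 to 2643, 2255 to 2685 and 2829 to 3176. ITGAX, CD1C, MS4A1, CSF1R and CD3E were not well above background on any array, and PTPRC, which all white blood cells carry, read 13.3 to 27.4. CD14, a receptor best known from monocytes, was the exception, at 56.0, 41.0 and 47.6 in T47D-VC1, 97.0, 124 and 127 in T47D-PA5, and 101, 211 and 218 in T47D-PA6 (T47D-PA6 over T47D-VC1 1.80, SE 0.29, adjusted p = 0.0082), and its part in the class II values was not tested. TFF1, PGR, PTPRC, CD14, PSMB9, MX2, CREB1, CREBBP, RSAD2, XAF1, SAMD9 and EPSTI1 are named here after their values were seen. A larger share of cells with class II RNA and more RNA per cell cannot be told apart in bulk samples such as these.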

How the data were processed

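Total RNA of 3 T47D lines was measured on 9 single-color Agilent arrays, 3 per line. The authors deposited scanner output, in which each spot has a processed intensity, background-corrected by Feature Extraction (version 9.5.1.1 per the labels, 10.7.1.1 per the file headers), and a table of normalized intensity values that they made by quantile normalization in R. Probe positions are those of the files (hg19), and exon annotation of that build was not used here. From the scanner intensities, outlier spots (46 to 117 per array) and control spots were left out, spots of a probe were averaged, and log2 values were quantile-normalized. Signals in the text are 2 raised to these values, in arbitrary units.

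A probe was tested if well above background on all 3 arrays of at least 1 line (26169 of 58201 probes), and the tested probe with the highest mean stood for a gene. Of the probes, 44 to 48% were well above background on an array, 0 spots were saturated, and the number of arrays limits the precision (median SD over genes 0.15 to 0.18 on the log2 scale). Lines were compared with limma 3.58.1 in R 4.3.3, in 1 fit to all 9 arrays with 6 residual degrees of freedom, with Benjamini-Hochberg adjustment over 20104 genes and a threshold of 0.05. "Rose" and "fell" refer to that threshold. The comparisons share arrays. Simulated data for T47D-PA6 over T47D-VC1 were used to test the fit, and 179 of 200 genes changed by 2 on the log2 scale were recovered among 20090 genes, with 10 others called.

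The 6 genes and all lists were chosen with earlier results of these data known. Named were all members, all class II chains, regulators and processing genes that passed in any comparison, the 5 genes of the type I and of the interferon gamma list with the largest change in T47D-PA6, and the 5 genes most like the members. Gene names follow RefSeq where a probe's symbol or accession matched (31127 probes by symbol, 3343 by accession, 496 by synonym). Alternatives were other normalization, background correction, filters, blocks, probes and tests, and leaving out each array.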

Additional observations from a re-analysis of the deposited data

Results flagged for a closer look

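HLA-DQA1 and HLA-DQA2 had opposite fitted signs against T47D-VC1 in the 2 PTH-AS lines, and the difference between the lines passed the test. The log2 difference of T47D-PA6 from T47D-PA5 was -2.35 for HLA-DQA1 (limma, adjusted p = 0.039), a fitted value that rests on signals not well above background in T47D-PA6. HLA-DQA1 was well above background on no T47D-VC1 array either, so its sign in T47D-PA6 against T47D-VC1 is not a measured one. It passed the filter on dim probes only through T47D-PA5, where it is high. For HLA-DQA2 the log2 difference of T47D-PA6 from T47D-PA5 was -2 (limma, adjusted p = 0.033). HLA-DQA2 was 1.39 in T47D-PA5 and -0.61 in T47D-PA6 against T47D-VC1, and neither of these passed the test alone.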

How the results depend on the processing

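Of the 3 members called in T47D-PA6 over T47D-VC1, 1 passed in a fit to the compared lines alone and 1 with no filter on dim probes. In both settings that 1 was HLA-DRA, whose T47D-VC1 signals were not well above background. CD74 (limma, adjusted p = 0.079 and 0.12) and HLA-DMB (0.064 and 0.10) lost their calls in both. By the methods' t-test with adjustment 0 passed (4 at an unadjusted p under 0.05), and with 1 array left out 0 to 3 passed. With the mean of a gene's tested probes, 4 members passed in that comparison: CD74, HLA-DRA, HLA-DMB and HLA-DPA1. HLA-DPA1 passed there (1.16, limma adjusted p = 0.0022) only with probe A_23_P30913 in the mean, against 0.16 on its main probe alone. That dimmer probe passed the filter on dim probes only through T47D-PA6, where it is high. In T47D-PA5 over T47D-VC1 the count of 0 became 1 with slide as a block (CD74) and 0 to 1 with 1 array left out. Without slide 1 it became 2, HLA-DMA and HLA-DRA, of which HLA-DRA is not counted as a rise. In T47D-PA6 over T47D-PA5 the count of 0 became 1 with the mean of a gene's tested probes (HLA-DPA1, with the same dimmer probe in the mean). Over all genes, the 2016 calls in T47D-PA6 over T47D-VC1 became 1145 in a fit to the compared lines alone, 1285 with no filter, 432 by the t-test, 7422 without slide 1 and 686 to 2771 with 1 array left out. The 334 in T47D-PA5 over T47D-VC1 became 198 with no filter, 607 with slide as a block, 39 by the t-test, 3984 without slide 1 and 100 to 593 with 1 array left out. The 1952 in T47D-PA6 over T47D-PA5 became 1262 with no filter, 790 by the t-test, 7113 without slide 1 and 713 to 2963 with 1 array left out. The cause was not tested.

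With normexp, the median of members and chains over T47D-VC1 moved from 0.79 to 0.35 in T47D-PA5 and from 0.62 to 0.35 in T47D-PA6. That of the type I list moved from 1.87 to 1.15 in T47D-PA5 and from 3.33 to 2.85 in T47D-PA6. That of the wider class II list of 48 genes moved from 0.13 to 0.07 in T47D-PA6. Without slide 1, members and chains moved from 0.62 to 0.21 in T47D-PA6 over T47D-VC1 and from -0.07 to -0.62 in T47D-PA6 over T47D-PA5, and the wider list from 0.13 to 0.07 in T47D-PA6. With genes above background on all arrays the wider list moved from 0.13 to 0.07 in T47D-PA5.

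Signs turned for values near 0. CD74 in T47D-PA6 over T47D-PA5 was -0.14 without T47D-PA5 replicate 1, -0.03 without T47D-PA6 replicate 1 and -0.19 without slide 1, and HLA-DMA was -0.04, -0.04 and -0.20 (with 1 array left out, -0.14 to 0.15 and -0.04 to 0.23). HLA-DPA1 in T47D-PA5 over T47D-VC1 was 0.01 with a 75th percentile shift, 0.61 with the mean of its probes, 1.23 on its other probe, 0.01 without slide 1, and 0.01 to 0.05 without T47D-PA5 replicate 3 or T47D-VC1 replicate 1 or 3. Leaving out slide 1 and using the other probe were chosen after seeing the data. Dim signals, HLA-DRA, HLA-DQA1 and CIITA among them, are limited by background.

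With the replicate number as a block, 2616, 487 and 2427 genes passed in the 3 comparisons (T47D-PA6 and T47D-PA5 over T47D-VC1, and T47D-PA6 over T47D-PA5), and 3, 0 and 0 members. The labels do not tie a number to a shared culture or day, and 1 of 9 same-numbered pairs fell under the criterion of 0.1, so the numbers were not taken to pair the arrays: correlations of deviations between same-numbered arrays were 0.0984 to 0.336, and 4 of 9 arrays correlated best with their own number. Calls lost under the block were HLA-DQA1 (adjusted p = 0.067) and HLA-DQA2 (0.054) between the PTH-AS lines, HLA-DQB2 in T47D-PA6 (0.052) and T47D-PA5 (0.068), HLA-DQB1 in T47D-PA5 (0.056), NFYA (0.057), TNFRSF14 (0.064) and IFI27 in T47D-PA5 (0.051).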
